A study of Mus musculus with 5 samples.

Results

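Ifit1, Ifit2 and Ifit3 encode interferon-induced proteins with tetratricopeptide repeats, and their RNA was followed in mouse macrophages exposed to lipopolysaccharide (LPS). All probes annotated with exactly one of these symbols were taken. They are 4 of the 14759 probes with 1 gene symbol, and they make 3 of the 8637 genes measured on all 5 arrays. Ifit1 has 2 probes (numbers 12305 and 12354), Ifit2 has 1 (15517) and Ifit3 has 1 (12063).

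Macrophages had been grown from C3H/ARC mouse bone marrow in culture with human CSF-1, which drives the differentiation of these cells. One sample was untreated (0 h), and the others had received 10 µg per ml of S. minnesota LPS for 0.5, 2, 7 or 21 h. Each was set on a two-colour cDNA array against RNA of whole C57BL6/J embryos of day 17.5, and there is 1 array per time. With no replicates no test is given, the number of arrays limits the precision, and the spread between probes of one gene is the only error estimate. That spread is technical and says nothing about the variation between mice or cultures.

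IFIT proteins are made in large amounts by cells that sense infection. Ifit1 binds RNA whose 5′ cap lacks the host's methyl marks and blocks its translation, Ifit2 binds RNA and can promote cell death, and Ifit3 is a partner of the other family members. LPS is sensed by TLR4, whose adaptor TRIF activates the transcription factor IRF3. IRF3 can act on Ifit genes directly, and the interferon beta it induces acts on them again through its receptor, with STAT2 and IRF9 among the factors that act in the nucleus. Both routes end at a DNA element, the interferon-stimulated response element (ISRE).

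In the RefSeq table of assembly GRCm38.p6 the family lies in 1 cluster on chromosome 19, in the order Ifit2, Ifit3, Ifit1bl1, Ifit3b, Ifit1bl2, the pseudogene Cnn2-ps and Ifit1. RefSeq promoter windows of 300 bases (250 before the annotated start and 50 after it) were found for each of the 3 genes, with 2 windows for Ifit2. They were searched on both strands for the ISRE core GAAANNGAAA (TTTCNNTTTC on the other strand), an NF-kappaB site core GGGNNTTNCC and the TATA box TATAAA. The windows of Ifit1 and Ifit3 each held 2 ISRE cores, and the 2 windows of Ifit2 held none of these letters. Variant forms of the elements, and sites outside the windows, are missed by such a search, so Ifit2 may still have them. Among all 32851 windows, 3.44% held at least 1 ISRE core and 0.225% held 2 or more.

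The 200 bases before the start are shown for Ifit1 and Ifit3, to let the cores be compared, and for Ifit3b, the close copy of Ifit3 in the same cluster. All lie on the plus strand of GRCm38.p6, at chr19:34640689-34640888, chr19:34583329-34583528 and chr19:34607757-34607956 in this order. Capitals mark the ISRE cores.
Ifit1: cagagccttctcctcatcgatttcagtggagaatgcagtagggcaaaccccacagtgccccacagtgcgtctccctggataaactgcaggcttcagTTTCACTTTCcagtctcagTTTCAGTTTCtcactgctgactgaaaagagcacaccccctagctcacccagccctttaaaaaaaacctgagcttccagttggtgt
Ifit3: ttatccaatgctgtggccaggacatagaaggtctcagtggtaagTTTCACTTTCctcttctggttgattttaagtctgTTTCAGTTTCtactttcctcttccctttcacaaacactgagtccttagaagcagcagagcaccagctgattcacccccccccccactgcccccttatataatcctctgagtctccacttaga
Ifit3b: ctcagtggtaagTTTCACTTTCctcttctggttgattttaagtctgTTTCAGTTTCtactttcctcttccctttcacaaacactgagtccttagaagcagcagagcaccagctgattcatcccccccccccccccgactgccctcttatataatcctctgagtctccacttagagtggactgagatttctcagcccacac
The letters of the first and of the second core are the same in these 3 genes. The cores begin 19 bases apart in Ifit1, at -104 and -85 from the start, and 34 bases apart in Ifit3, at -156 and -122. The Ifit3 and Ifit3b windows share an identical stretch of 169 bases that holds both cores. Their transcripts were not compared here, and no listed probe carries the symbol Ifit3b, so a share of Ifit3b RNA in the Ifit3 signal cannot be told apart. The Ifit1 window overlaps by 245 bases with 1 of the windows of Ifit1bl2, which runs the other way, so these genes have the same pair of cores between their starts. An NF-kappaB core was matched in the Ifit1 window at -159 (4.79% of all windows hold one) and in none of the Ifit2 and Ifit3 windows. The exact letters TATAAA, held by 13.6% of all windows, were in none of the windows of the 3 genes. Variants of the TATA box were not searched, and the Ifit3 and Ifit3b sequences shown hold tatataa close to the start.

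**Figure D1:**
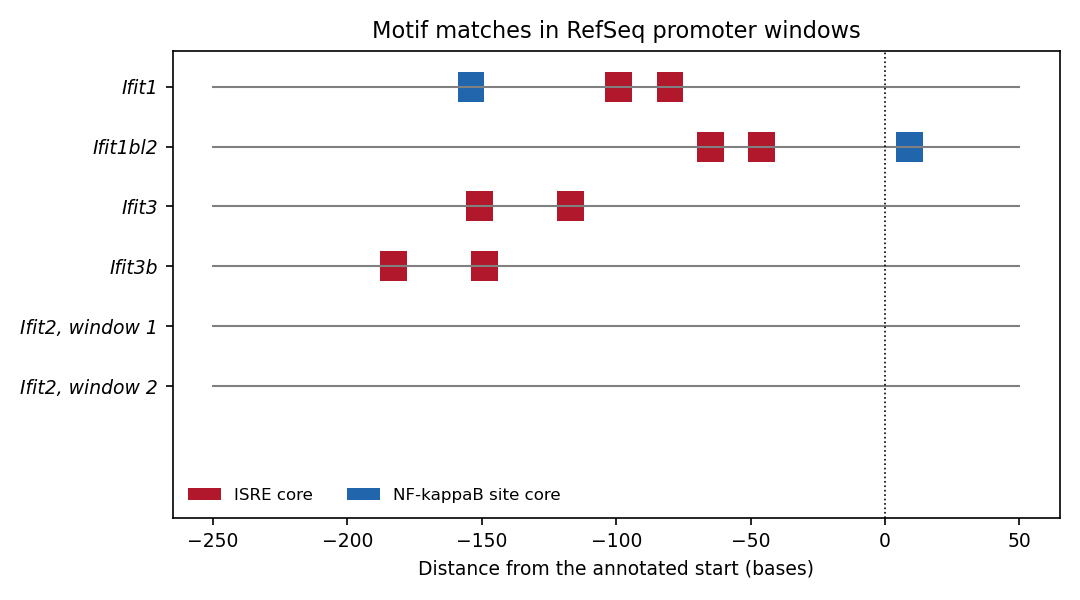
Matches of the ISRE core (red) and of the NF-kappaB site core (blue) in RefSeq promoter windows, by distance from the annotated start in bases; each grey line is 1 window in the direction of its gene, and for Ifit1bl2 only the window that overlaps that of Ifit1 is drawn. The windows drawn for Ifit1, Ifit1bl2, Ifit3 and Ifit3b each hold 2 ISRE cores and those of Ifit2 none, with variant forms not searched.

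Values below are log2 ratios of macrophage to embryo RNA minus the median of the array, and a change is the value at a time minus that at 0 h. The deposited values were read as log10, and the ratio as macrophage over embryo. Neither is stated in the labels. Base 10 was inferred from the size of the values (-0.378 to 0.415 from the 5th to the 95th percentile at 0 h). If the base was 2, every log2 value is 3.32 times too large. The direction is likely from the marker lists: 8 measured macrophage markers of 17 had a median log2 ratio of 1.75 at 0 h, and 11 measured whole-embryo markers of 13 one of -1.34. If it ran the other way, higher and lower would exchange. The markers Csf1r and Adgre1 were not analysed here. The 0.5 h and 2 h arrays held many high values in certain stretches of probe numbers. Of 207 runs of 96 numbers, 94 had at least 10% of probes with a 2-fold excess over 0 h on either of these arrays, and are called affected runs below. The probes of Ifit1 and Ifit2 lie in such runs and that of Ifit3 does not.

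Ifit1 stood far above the unstimulated cells at 7 h and 21 h, and at 2 h too unless the arrays were quantile normalized. Its log2 ratio was 1.76 at 0 h, 3.79 at 0.5 h, 6.30 at 2 h, 5.84 at 7 h and 5.23 at 21 h, as the mean of 2 probes. The 0 h value was the lowest, and the 4 LPS arrays lay above it under this scaling. Against 0 h it was 4.08-fold higher at 0.5 h (log2 change 2.03, SD over its probes 0.77), 23.2-fold at 2 h (4.54, SD 0.91), 16.9-fold at 7 h (4.07, SD 0.60) and 11.0-fold at 21 h (3.46, SD 0.42). Among the 8637 genes its change ranked 171 from the top at 0.5 h, 79 at 2 h, 3 at 7 h and 7 at 21 h. Under quantile normalization of the arrays the change was -0.11 at 0.5 h and 0.61 at 2 h, within the spread between probes, so a higher level at both times depends on the scaling.

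The 2 probes of Ifit1 differed in the time of the highest value. Probe 12305 had log2 changes of 1.48, 3.89, 4.50 and 3.76 at 0.5, 2, 7 and 21 h, and probe 12354 had 2.58, 5.18, 3.65 and 3.17. The first was highest at 7 h and the second at 2 h, although both carry the same symbol and lie in the same affected run. The share of probes with such an excess in that run was 20.9% at 0.5 h, 44.9% at 2 h, 16.7% at 7 h and 23.1% at 21 h. With each value set against the median of its run, Ifit1 was highest at 7 h, as it was under quantile normalization. The mean values at 2 h and 7 h were 0.46 apart, less than the spread between probes of one gene (pooled SD 0.97 at 2 h and 0.51 at 7 h, over 3015 genes with several probes). The order of these times in Ifit1 is therefore not settled by these arrays.

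Ifit2 stood near the unstimulated level until 2 h and far above it at 7 h and 21 h. Its single probe had log2 ratios of 1.28, 1.18, 1.66, 4.22 and 3.54 at 0, 0.5, 2, 7 and 21 h. The first 3 arrays lay within 0.48 of each other and the last 2 well above them. The change was -0.10 at 0.5 h and 0.37 at 2 h, both within the spread between probes (0.67 and 0.97). Under quantile normalization these values were -1.08 and -0.98. At 7 h it was 7.64-fold higher (2.93, rank 10 from the top) and at 21 h 4.77-fold (2.25, rank 20). The step from 2 h to 7 h was 2.56 on the log2 scale, or 5.91-fold. The probe lies in an affected run, in which the share of probes with a 2-fold excess was 15.8% at 0.5 h and 23.2% at 2 h. The neighbouring probe 15518 of Neurod4, a neuronal transcription factor, had changes of 5.21 and 5.83 at these times. The median change of the run was 0.49 at 0.5 h and 0.42 at 2 h, so Ifit2 lay below it at the first time and close to it at the second.

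Ifit3 followed another course, with a small early excess, none at 7 h and its highest value at 21 h. The 7 h value, and with it the step to 21 h and the differences from the paralogs at 7 h, rests on 1 spot on 1 array, with no second probe to check it. Its single probe had log2 ratios of 1.53, 2.75, 2.68, 1.35 and 4.19 at 0, 0.5, 2, 7 and 21 h. It was lowest, and nearly equal, before LPS and at 7 h, and the 21 h array was the highest. It was 2.33-fold higher at 0.5 h (log2 change 1.22), 2.21-fold at 2 h (1.14), changed by -0.18 at 7 h, and was 6.29-fold higher at 21 h (2.65, rank 12 from the top). The step from 7 h to 21 h was 2.83, or 7.13-fold, the sixth in size among 8637 genes (pooled SD over probes for this step 0.40). Its run of probe numbers had 4.26%, 4.21%, 4.30% and 6.38% of probes with a 2-fold excess at the 4 times. The early excess was lost under quantile normalization of all probes, with -0.35 at 0.5 h and -0.94 at 2 h. With that scaling over the probes outside the affected runs it was 0.93 and 0.26. The pooled SD over probes outside those runs was 0.42 at 0.5 h and 0.55 at 2 h, so the 2 h value moved by more than it. Under the 5 scalings of all probes, reading as log2 included, the change was from -0.86 to -0.055 at 7 h and from 0.80 to 3.23 at 21 h.

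**Figure D2:**
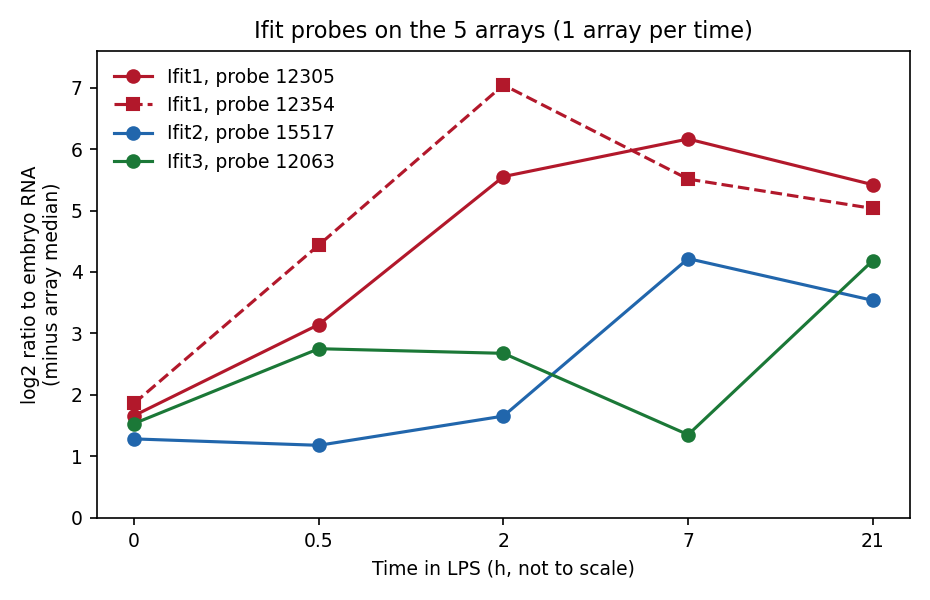
log2 ratio to embryo RNA minus the array median (y axis) of the 4 probes on the 5 arrays (x axis, hours in LPS, not to scale); each point is 1 spot on 1 array, so there are no error bars. Ifit1 is high from 2 h, though its change at 2 h is 0.61 under quantile normalization, Ifit2 is high from 7 h (4.22), and Ifit3 returns to 1.35 at 7 h before reaching 4.19 at 21 h.

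The paralogs were then set against each other on the same array, which removes any shift common to the array. A shift of a run of probe numbers is not removed, and the probes of Ifit1 and Ifit2, unlike that of Ifit3, lie in affected runs. At 7 h Ifit1 exceeded Ifit3 by 4.26 in log2 change and Ifit2 exceeded it by 3.12. Of 1863 genes with exactly 2 probes, 2 and 5 had probes that differed by as much at that time (0.107% and 0.268%). These differences at 7 h were therefore larger than nearly all differences between probes of one gene, whose SD was 0.73. Under quantile normalization they were 5.32 and 4.22. At 2 h Ifit1 exceeded Ifit2 by 4.16 and Ifit3 by 3.39. On that noisier array the 2 probes of a gene differed by as much in 2.58% and 4.40% of genes, and quantile normalization left 1.59 and 1.56. With each value set against its run, these differences at 2 h were 3.75 and 2.77. Ifit1 exceeded Ifit2 by 1.14 at 7 h (11.4% of genes). At 21 h it exceeded Ifit2 by 1.21 (6.39%) and Ifit3 by 0.81 (16.1%). With each value set against its run, these differences at 21 h were 0.72 and 0.73. Under median centring Ifit2 minus Ifit3 was -0.40 at 21 h, less than the SD of 0.67 for the difference of 2 probes. At 0.5 h Ifit1 exceeded Ifit2 by 2.13 (4.83% of genes) and Ifit3 by 0.81 (21.4%), and Ifit2 minus Ifit3 was -1.32 (10.6%).

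As shares of its own largest log2 change, taken at 2 h under median centring, Ifit1 had reached 44.7% at 0.5 h and 100% at 2 h, and kept 89.9% at 7 h and 76.4% at 21 h. Ifit2 stood at -3.56%, 12.7%, 100% and 76.8%. Ifit3 stood at 45.9%, 43.1%, -6.85% and 100%. These shares do not depend on the base of the logarithm, but they do on the scaling: under quantile normalization Ifit1 stood at -0.11, 0.61, 4.46 and 4.09, highest at 7 h. The decline of Ifit1 and Ifit2 from 7 h to 21 h was alike, with steps of -0.61 and -0.68, and that of Ifit3 ran the other way.

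Counted by a rule of size, 2 of the 3 members (Ifit1 and Ifit3) were at least 2-fold higher than at 0 h at 0.5 h and at 2 h, 2 (Ifit1 and Ifit2) at 7 h, and 3 at 21 h. Over all 8637 genes the shares were 5.95%, 12.4%, 4.08% and 3.05% in the same order. Outside the affected runs Ifit3 is the one member, and it passed the rule at 0.5, 2 and 21 h. There 1.28%, 4.22%, 4.52% and 2.55% of 5996 genes did at 0.5, 2, 7 and 21 h. The runs were defined by their excess at 0.5 h or 2 h, so the lower shares outside them at these times follow from the definition.

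**Figure D3:**
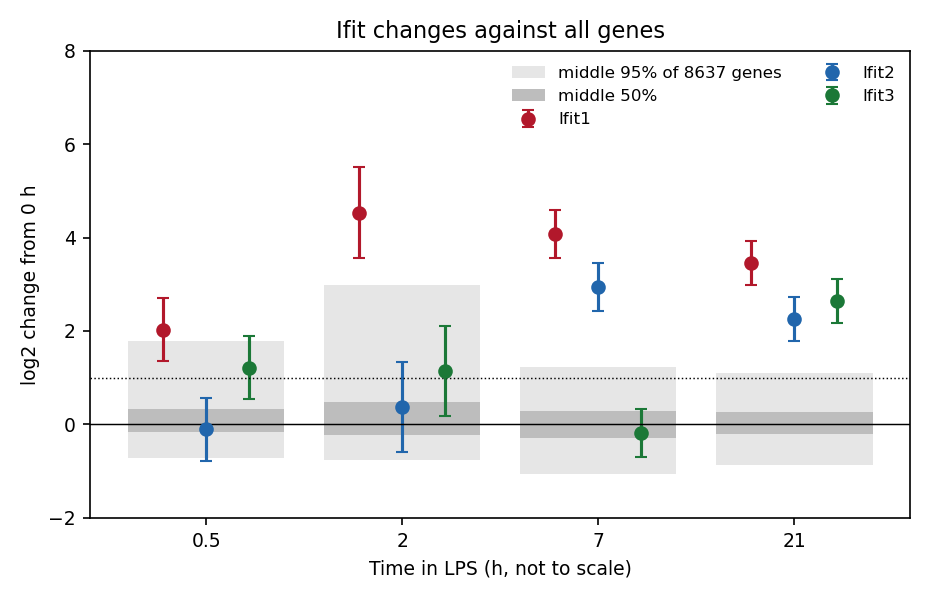
log2 change from 0 h (y axis) of the 3 genes at each time (x axis, hours in LPS), with bars of the pooled SD over probes of one gene. Grey boxes span the middle 95% and 50% of 8637 genes, and the dotted line marks 2-fold; all 3 genes lie above the grey box at 21 h and Ifit3 lies within it at 7 h. Under quantile normalization Ifit1 stood at -0.11 at 0.5 h, and Ifit3 at -0.35 at 0.5 h and -0.94 at 2 h.

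Rescaling of the arrays moved mainly the early values. Without centring, the median change of all genes moved to 0.10, -0.22 and -0.12 at 2, 7 and 21 h, and changes of the members moved by less than the spread between probes. With each value set against its run of probe numbers, Ifit1 stood at 1.55 and 3.81 at 0.5 h and 2 h, and Ifit2 and Ifit3 at 0.056 and 1.04 at 2 h. Under quantile normalization no member was 2-fold higher at 0.5 h or 2 h, while Ifit1 stood at 4.46 and Ifit2 at 3.36 at 7 h. Quantile normalization gives every array the same distribution, so on an array with an excess of high values it lowers them.

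**Figure D4:**
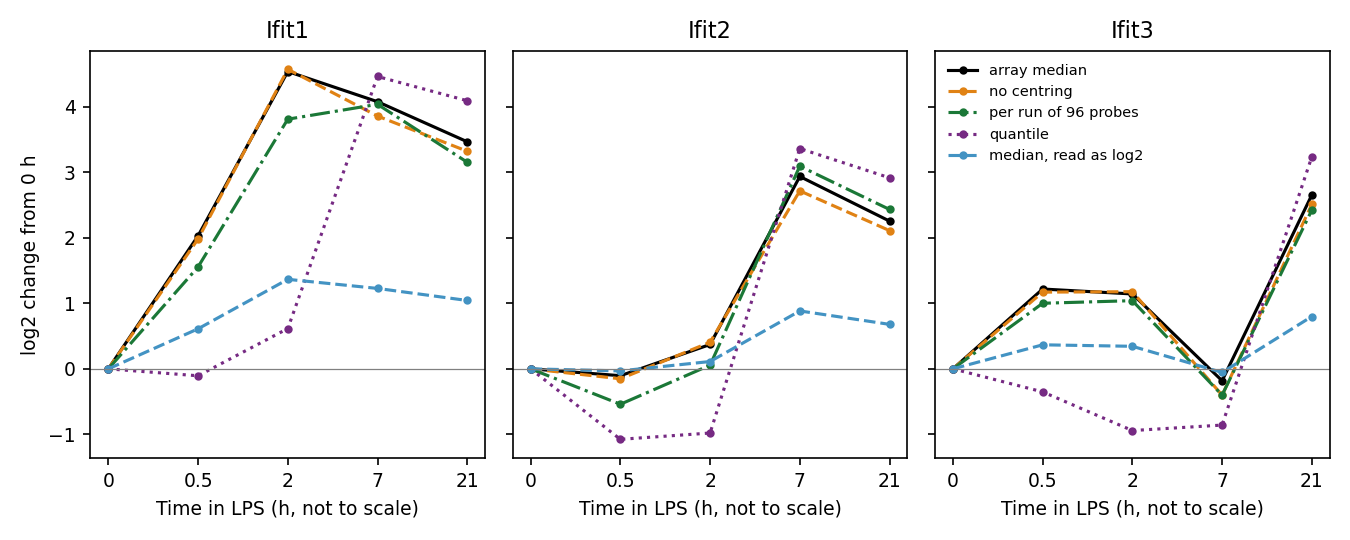
log2 change from 0 h (y axis) of Ifit1, Ifit2 and Ifit3 at each time (x axis, hours in LPS, not to scale) under 5 ways of scaling the arrays, 1 line each. Quantile normalization parts from the other lines at 0.5 h and 2 h, with -0.11 and 0.61 for Ifit1 and -0.35 and -0.94 for Ifit3. The lines of Ifit1 part at 7 h and 21 h too: read as log2 it is at 1.23 and 1.04, and under quantile normalization at 4.46 and 4.09. The 7 h and 21 h values of Ifit2 and the 21 h value of Ifit3 are above 0 in each line.

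Ifit1bl2, a further gene of the cluster that shares its start region with Ifit1, has 3 probes; it is no member by symbol and was looked at with its values known. On 2 probes measured on all arrays it stood 14.9-fold above 0 h at 0.5 h (log2 change 3.90, SD over probes 2.76), 31.8-fold at 2 h (4.99, SD 1.08), 5.48-fold at 7 h (2.45, SD 0.55) and 4.56-fold at 21 h (2.19, SD 0.58). The 2 probes disagreed at 0.5 h, with changes of 5.85 and 1.95. The probe without a 0 h value had log2 ratios of 4.46, 5.21, 5.29 and 4.69 at 0.5, 2, 7 and 21 h. Its highest mean was at 2 h, and its 3 probes all lie in affected runs.

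The genes whose 4 changes were most like those of each member were found by the root mean square difference over the 4 times, among all 8637 genes. All changes share the 0 h array. For Ifit1 these were Cxcl10 (0.85), the chemokine that attracts T cells, Rsad2 (0.86), which encodes the antiviral protein viperin, the chemokine receptor-like gene Ccrl2 (1.27), the acute-phase gene Saa3 (1.30) and Il1a (1.35). All probes of Cxcl10, Rsad2, Saa3 and Il1a lie in affected runs, as do those of Ifit1, and that of Ccrl2 does not. The part of the runs in this likeness was not tested. For Ifit2 they were Cep170 (0.34), a gene of the centrosome, the fibrinogen-like gene Fgl2 (0.39), Usp18 (0.45), the glycolysis regulator Pfkfb3 (0.45) and Mxd1 (0.55). Usp18, which removes ISG15 from proteins and damps the interferon receptor, had changes of 0.46, 0.73, 2.42 and 1.91, on a probe outside the affected runs. For Ifit3 the nearest were Il20rb (0.71), the gelatinase gene Mmp9 (0.71), Cd52 (0.78), Srpk2 (0.79) and Ehhadh (0.82), none of which had a change at 21 h as large as that of Ifit3. The nearest of these at 21 h was Mmp9, with 1.86. The difference was 2.48 between Ifit1 and Ifit2, 2.78 between Ifit1 and Ifit3, and 1.75 between Ifit2 and Ifit3. Seen from Ifit1, Ifit2 was in place 104 and Ifit3 in place 286 among all genes. Seen from Ifit2, Ifit3 was in place 2507 and Ifit1 in place 8141, and seen from Ifit3, Ifit2 was in place 6739 and Ifit1 in place 8571. These places depend on the size of the changes as well as on their timing. The same difference of 2.48 between Ifit1 and Ifit2 gave place 104 one way and 8141 the other.

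The pathway upstream of the Ifit genes was followed with lists chosen with earlier results known. Of 12 genes of the endotoxin receptor and its TRIF arm 4 were measured. At least 2-fold higher at 0.5, 2, 7 and 21 h were 0, 0, 1 and 1 of them, beside 5.95%, 12.4%, 4.08% and 3.05% of all genes. The 1 gene was Tank, an adaptor of the kinases that activate IRF3 (2.61-fold at 7 h and 2.89-fold at 21 h). Irf3 itself had changes of 0.43, 0.88, -0.25 and -0.53. Of 13 genes of interferons, their receptor and signal transducers 6 were measured, and the interferon genes were not analysed here. In this list 1, 2, 2 and 2 genes were at least 2-fold higher (5.95%, 12.4%, 4.08% and 3.05% of all genes), with a median change of 0.23, 0.74, 0.90 and 0.68. None of the 6 was 2-fold lower, and the share of all genes lower was not counted. The transcription factor gene Irf1 led early, with changes of 1.03, 1.71, 0.84 and 0.43. Stat2, a subunit of the factor that binds the ISRE, had -0.14, 0.044, 2.17 and 1.27, on a probe in an affected run. Irf7, which amplifies the response, had 0.30, 1.35, 2.24 and 1.74 on 2 probes outside them. Stat2 and Irf7 were thus highest at 7 h, like Ifit2 and unlike Ifit3.

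Of 43 interferon-stimulated effectors 20 were measured. At the 4 times 3, 7, 8 and 6 of them were at least 2-fold higher, beside 5.95%, 12.4%, 4.08% and 3.05% of all genes. None of the 20 was 2-fold lower at any time, and the share of all genes lower was not counted. Under quantile normalization 1 and 2 effectors were 2-fold higher at 0.5 h and 2 h. Their median change was 0.31, 0.48, 0.89 and 0.66, beside 0.078, 0.070, -0.00029 and 0.022 over all genes. The highest array was that of 7 h in 12 of the 20, of 2 h in 3, of 21 h in 3, of 0.5 h in 1 and of 0 h in 1. The same count over all genes was not made. Some of the 12 had changes at 7 h as small as 0.39, below the pooled SD over probes of 0.51. Rsad2 (3.42, 4.04 and 3.46 at 2, 7 and 21 h), Ifi204 (2.16, 3.44 and 2.60) and Cxcl10 (3.81, 5.42 and 3.50) all stood high at 7 h. Eif2ak2, the kinase PKR, was 10.3-fold higher at 2 h and 1.94-fold at 7 h, with 1 of its 2 probes in an affected run. None of the 20 was 2-fold higher at 21 h than at 7 h, the differences running from -1.92 to 0.41. Ifit3 was, by 2.83, as were 1.82% of all genes. For 20 genes, 0 is near that share. The single measured gene of 7 sensors of nucleic acids, Dhx58, had 1.31 at 7 h and 0.42 at 21 h.

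Of 7 brakes on interferon signalling 6 were measured, and Usp18 alone was at least 2-fold higher, at 7 h and 21 h. Over all genes 5.95%, 12.4%, 4.08% and 3.05% were at least 2-fold higher at 0.5, 2, 7 and 21 h. Socs1, an inhibitor of the receptor's kinases, had changes of -0.14, -0.54, -0.64 and 0.0086. Of 13 subunits of the translation factor eIF3, which IFIT proteins bind, 11 were measured, and 0 were 2-fold higher or lower at any time. For so few genes, 0 higher is near the shares over all genes, and the share of all genes lower was not counted. The median change of the 11 subunits was 0.25, 0.11, 0.070 and -0.021.

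**Figure D5:**
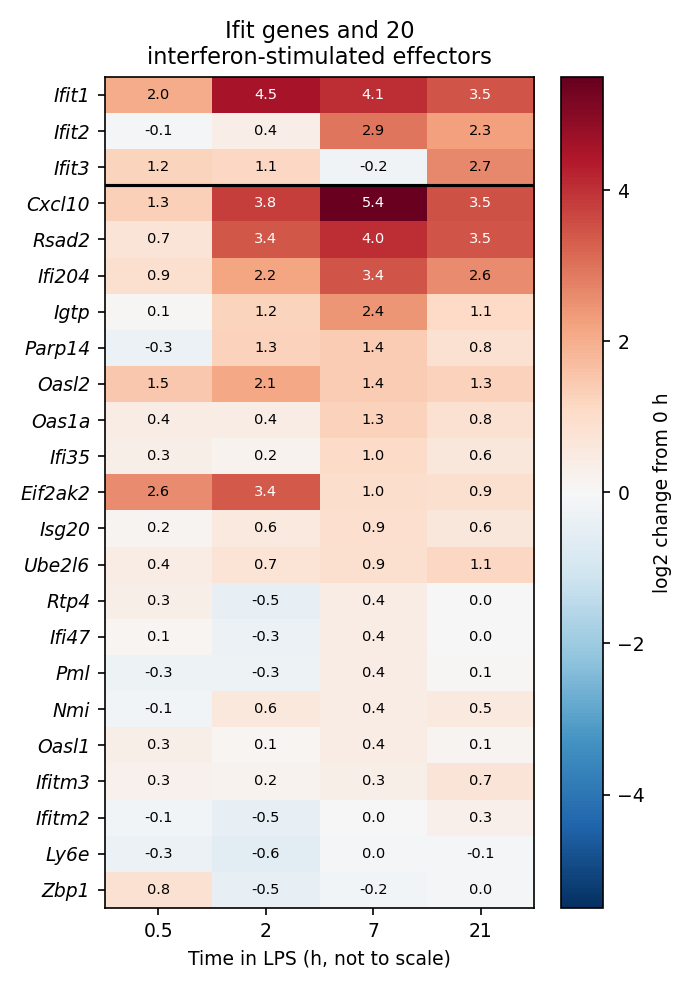
log2 change from 0 h (colour and printed values, 1 array per time) of the 3 Ifit genes and, below the line, of 20 interferon-stimulated effectors ordered by their value at 7 h (rows), at 4 times in LPS (columns). Most effectors with large changes are highest at 7 h, where Ifit3 stands at -0.18. Under quantile normalization Ifit1 and Ifit3 are at -0.11 and -0.35 at 0.5 h, and Ifit3 is at -0.94 at 2 h.

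Among the macrophage markers the Fc receptor gene Fcgr1, on a probe in an affected run, had changes of 6.83, 6.84, 1.52 and 1.28, and the median change of the 8 was 0.038, 0.17, 0.39 and 0.40. Markers of other cells were measured in part. Of 5 B cell markers 2 were measured, Cd79a with changes of 1.23, 0.70, 0.25 and 0.46 and Cd79b with 1.13, 2.05, 2.41 and 1.79. Their log2 ratios ran from -2.08 to 0.28 at 0 h and from -0.95 to 1.52 with LPS. The median change of 6 neutrophil markers was 0.041, 0.10, 0.16 and -0.51, and that of 2 T and NK cell markers 0.12, 0.17, 0.46 and 0.22. Fewer cells of a type and less RNA per cell cannot be told apart in such bulk samples, and the part of other cells in the Ifit values was not tested.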

How the data were processed

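The deposited table holds 1 log10 ratio per probe and array, as read from its values; the normalization by the authors and the base are not given in the sources used here. Values were multiplied by 3.32 and centred on each array's median over 18296 probes measured on all 5 arrays. The platform annotation of the probes gave 14759 probes 1 symbol, 170 several, and 4899 were unlisted. Entrez identifiers matched 14628 to the gene table of GRCm38.p6. The 13782 named probes on all arrays were averaged per symbol. Genes named are the 3 members, the 5 nearest patterns of each, up to 4 members of each list with the largest changes and list members named for their role. Cd79a, Cd79b, Fcgr1, Ifit1bl2 and the genes of neighbouring probes were named after their values were seen. Members and lists were chosen with earlier results of these data known. Alternatives were no centring, quantile normalization, centring per run, base 2, 0.5 h as baseline, leaving out probes, affected runs or a threshold of 1.5-fold. A further one was centring on the probes measured on the 2 arrays compared. Steps were tested on simulated data. Python 3.11.15, pandas 2.3.3 and numpy 2.4.6 were used.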

Additional observations from a re-analysis of the deposited data

How the results depend on the processing

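Of 81 alternative values of the members' changes, 57 stayed within the spread between probes, and so did 52 of 64 of the paralog differences. The spread was that over all probes, inside and outside the affected runs. The 57 include 12 values centred on the probes measured on the 2 arrays compared. These 12 use the same spots and could hardly move. No centring shifts all genes of an array alike, by less than that spread. The 52 include the differences without centring, which are equal to the main ones by arithmetic and could not move. Quantile normalization turned Ifit1 at 0.5 h (-0.11) and Ifit3 at 0.5 h and 2 h (-0.35 and -0.94). It moved Ifit1 at 2 h and 21 h to 0.61 and 4.09, Ifit2 at 0.5, 2 and 21 h to -1.08, -0.98 and 2.91, and Ifit3 at 7 h and 21 h to -0.86 and 3.23. It moved Ifit1 minus Ifit2 at 0.5 h and 2 h to 0.97 and 1.59, and the differences from Ifit3 to 1.56 (Ifit1, 2 h), 5.32 (Ifit1, 7 h) and 4.22 (Ifit2, 7 h). The highest time of Ifit1 was 7 h under it, per run and without probe 12354. It left 0 members 2-fold higher at 0.5 h and at 2 h, and 1 and 2 effectors. With the 0.5 h array as baseline Ifit1 stood at 2.51, 2.05 and 1.44 at 2, 7 and 21 h, and Ifit3 at -0.075, -1.40 and 1.43. Read as log2, Ifit1 stood at 0.61, 1.37, 1.23 and 1.04, Ifit2 at 0.88 and 0.68 at 7 h and 21 h, and Ifit3 at 0.37 and 0.80 at 0.5 h and 21 h. Ifit1 minus Ifit2 was then 0.64, 1.25, 0.34 and 0.36, Ifit1 minus Ifit3 1.02 and 1.28 at 2 h and 7 h, and Ifit2 minus Ifit3 0.94 at 7 h. The counts at 2-fold were then 0, 1, 1 and 1 members and 0, 3, 3 and 2 effectors. Outside the affected runs they were 1, 1, 0 and 1 of 1 member and 1, 3, 4 and 2 of 13 effectors, since fewer genes were counted. At 1.5-fold the effectors numbered 6 at 0.5 h and 12 at 21 h. Quantile normalization outside the runs was chosen after seeing the data. The causes of the other shifts were not tested. No paired analysis was possible because each group has 1 array. The files give no signal over background, and no value could be weighed by it.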

Other observations

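Probes next in number to the Ifit1 and Ifit3 probes had the following courses. Probe 12306, next to probe 12305 of Ifit1, is the single probe of Myot, a gene of the muscle sarcomere. Its changes were -0.48, 1.92 and 2.92 at 0.5, 2 and 7 h, and at 21 h it stood 5.66-fold above 0 h. Probe 12355, next to probe 12354 of Ifit1, is one of 2 of Rsad2 and had 0.76, 4.32, 3.90 and 3.67 at 0.5, 2, 7 and 21 h. Probe 12064, next to the Ifit3 probe and annotated Calm4, had 1.06, 0.35 and 0.67 at 0.5, 2 and 7 h, and its highest value at 21 h, 2.83-fold above 0 h, the time at which Ifit3 was also highest. The probes on the other side, of Eif4b, Pafah1b3 and Cluh, had changes between -0.74 and 0.88. Across all probes, changes of probes next in number correlated with r = 0.25, 0.28, 0.18 and 0.15 at the 4 times, and those of probes 48 numbers apart with 0.11, 0.15, 0.032 and 0.043 (over 18073 pairs or more, which share arrays and are not independent). Whether neighbouring spots share signal was not tested.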
